A study of Mus musculus with 2 samples.

Results

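Adipogenic and lipid-handling genes were followed through the cells of the mouse mammary gland, using 10 members fixed by name: Pparg, Cebpa, Cebpb, Fabp4, Lpl, Plin1, Plin2, Cd36, Adipoq and Car3, out of 32285 genes counted. Members were found by gene symbol, and no measured value was used to choose them. The samples were one single-cell library from Gpm6a knockout mice and one from wild-type littermates, both on C57BL/6 and both from the 4th gland of virgin females of 6 to 8 weeks. Glands were digested with collagenase, viable cells were sorted by exclusion of DAPI, and 3 littermates of each genotype were used. The labels do not say which exon of Gpm6a was deleted or in which cells, nor whether the littermates of one genotype were pooled before loading. Because each genotype has 1 library, no difference could be set against a spread between replicates, and none was tested. Every interval below is an exact 95% interval that covers counting error only.

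After removal of poor barcodes and doublets the knockout library held 10472 cells, with a median of 9521 unique molecular identifiers (UMIs) per cell, and the wild-type library 10523 cells with a median of 11086. Gpm6a itself was counted 29 times in the knockout cells and 284 times in the wild-type cells, a level of 0.225 and 1.91 CPM. Here and below, CPM is the UMIs of a gene per 1000000 UMIs of all genes in the cells of one class and library. The 2 libraries shared 33 barcode sequences. They differed in cell makeup: the wild-type library held 64 skeletal muscle cells, 297 keratinocyte-like cells and 653 cells of a cluster led by Rspo3, Rxfp2 and Myoc, against 6, 0 and 16 in the knockout. Classes were called from marker genes after clustering without the members, and 14 of them held at least 100 cells in each library. These were 4 fibroblast subsets, vascular endothelial cells, pericytes or smooth muscle, basal, luminal progenitor and hormone-sensing luminal cells, a cluster that carried progenitor and hormone-sensing markers together, macrophages, dendritic cells, T cells and B cells.

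Fat cells form from fibroblast-like precursors. C/EBPβ acts early in this programme, and PPARγ and C/EBPα then drive the genes of the mature cell. Those genes include Lpl, whose secreted enzyme splits triglyceride from circulating lipoproteins, Cd36 and Fabp4, which take up and carry the released fatty acids, Plin1, which coats the large lipid droplet, and Adipoq, which encodes the hormone adiponectin. The mammary epithelium grows through a pad of fat. Large, buoyant fat cells are usually lost when a gland is digested and spun, while their RNA can enter droplets with other cells.

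No cluster of fat cells was found in either library. At least 5 of 10 fat-cell markers were detected together in 15 analysed barcodes of the knockout library and 9 of the wild type, and in 3 and 1 of the removed barcodes. These 15 and 9 barcodes remain in the classes below.

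All positions are on the mouse genome, build GRCm38. Of the regulators, Pparg (ENSMUSG00000000440) spans chr6:115360951-115490399, Cebpa (ENSMUSG00000034957) chr7:35119293-35121928 and Cebpb (ENSMUSG00000056501) chr2:167688915-167690418, each on the plus strand. Lpl (ENSMUSG00000015568) spans chr8:68880491-68907448 on the plus strand, and Cd36 (ENSMUSG00000002944) at chr5:17781690-17888801 and Fabp4 (ENSMUSG00000062515) at chr3:10204088-10208576 are on the minus strand. The perilipin genes are on the minus strand, Plin1 (ENSMUSG00000030546) at chr7:79720218-79732903 and Plin2 (ENSMUSG00000028494) at chr4:86648386-86670060. Adipoq (ENSMUSG00000022878) at chr16:23146536-23158028 and Car3 (ENSMUSG00000027559) at chr3:14863512-14872523 are on the plus strand. A gene on the opposite strand overlaps Pparg, Cebpa and Cebpb in the annotation (Gm44079, Gm45091 and Tmem189), and the strand setting of the counting is not given in the sources used here.

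Promoter sequence bears on how the regulators and their targets are linked, since C/EBP proteins bind TTNNGCAA-like sites. RefSeq promoter windows on GRCm38.p6, from 250 bases before to 50 bases after a start, were matched for 7 of the 10 members, in 9 windows. TTNNGCAA, searched on both strands, was found in 2 of these 9 windows and in 3547 of all 32851 promoters (10.8%). The 2 windows are shown because each holds a pair of matches, in capitals below. The first is the window at the most downstream of 3 Pparg starts, chr6:115421816-115422115 on the plus strand, known as the start of the isoform enriched in fat cells, with matches that begin at positions -215 and -16 from the start. The second is that of Plin1, chr7:79732727-79733026 on the minus strand, with matches at positions -187 and -58.
Pparg: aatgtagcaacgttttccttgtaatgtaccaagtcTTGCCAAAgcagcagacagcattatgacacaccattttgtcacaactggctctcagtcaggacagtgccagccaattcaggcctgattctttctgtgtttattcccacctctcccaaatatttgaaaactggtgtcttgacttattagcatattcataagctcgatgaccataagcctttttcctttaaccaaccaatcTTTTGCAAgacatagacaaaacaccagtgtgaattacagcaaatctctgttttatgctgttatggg
Plin1: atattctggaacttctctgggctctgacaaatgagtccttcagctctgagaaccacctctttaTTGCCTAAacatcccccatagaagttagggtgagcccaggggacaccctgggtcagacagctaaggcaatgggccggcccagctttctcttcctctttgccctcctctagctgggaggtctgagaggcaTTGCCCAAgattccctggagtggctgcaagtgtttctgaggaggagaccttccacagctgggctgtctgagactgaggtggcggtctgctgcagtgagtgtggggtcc
No match was present in the windows of Cebpa, Cebpb, Plin2, Cd36 and Adipoq or at the other 2 Pparg starts, which says only that these letters are absent there. The DR1 motif, the direct repeat bound by PPAR and RXR pairs, and a looser form of it were in none of the 9 windows and in 0.0396% and 0.381% of all promoters. Because the libraries count 3′ ends, UMIs from the 3 Pparg starts cannot be told apart.

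Lymphocytes (T, B and natural killer cells), which are not known to make adiponectin or perilipin 1, were used as a guide to the level of free RNA. They had medians of 4449.5 and 5315 UMIs against 9521 and 11086 over all cells, so that level may differ in classes of other depth. In the 1268 knockout and 516 wild-type lymphocytes Plin1 had no UMI, which with 3 counts as the limit allows up to 0.376 and 0.690 CPM, and Adipoq had 1 UMI in each library. Car3, a carbonic anhydrase abundant in fat and in slow muscle, stood at 0.752 CPM (0.276 to 1.64) in the knockout lymphocytes and at 4.14 CPM (2.45 to 6.54) in the wild type. Fabp4 stood at 22.1 and 62.8 CPM, Lpl at 29.3 and 38.2, Plin2 at 17.9 and 35.9 and Cd36 at 8.14 and 13.3. Car3 and Plin2 were thus higher in the wild-type lymphocytes. Cd36 was also higher there, but the intervals overlapped once the leading cell of each library was left out. It then stood at 6.52 CPM (4.87 to 8.56) in the knockout and 8.34 CPM (5.84 to 11.5) in the wild type. For Fabp4 the order rests on 1 wild-type B cell, which held 228 of the 273 UMIs: with the leading cell of each library left out, Fabp4 stood at 17.1 CPM in the knockout and 10.4 CPM in the wild type. Except for Cebpb, a level at or below those of all lymphocytes is read below as background. Where the leading cell alters that reading for Fabp4, it is said beside the value. Lymphocyte Cebpb differed by cell type, at 190 and 193 CPM in T cells and 371 and 422 CPM in B cells. Whether lymphocytes make Cebpb themselves was not tested. The skeletal muscle cells of the wild-type library held 2868 of its 4018 Car3 UMIs, and the summed level of 6 skeletal muscle markers in lymphocytes was 19.0 CPM in the knockout and 112 CPM in the wild type.

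**Figure D1:**
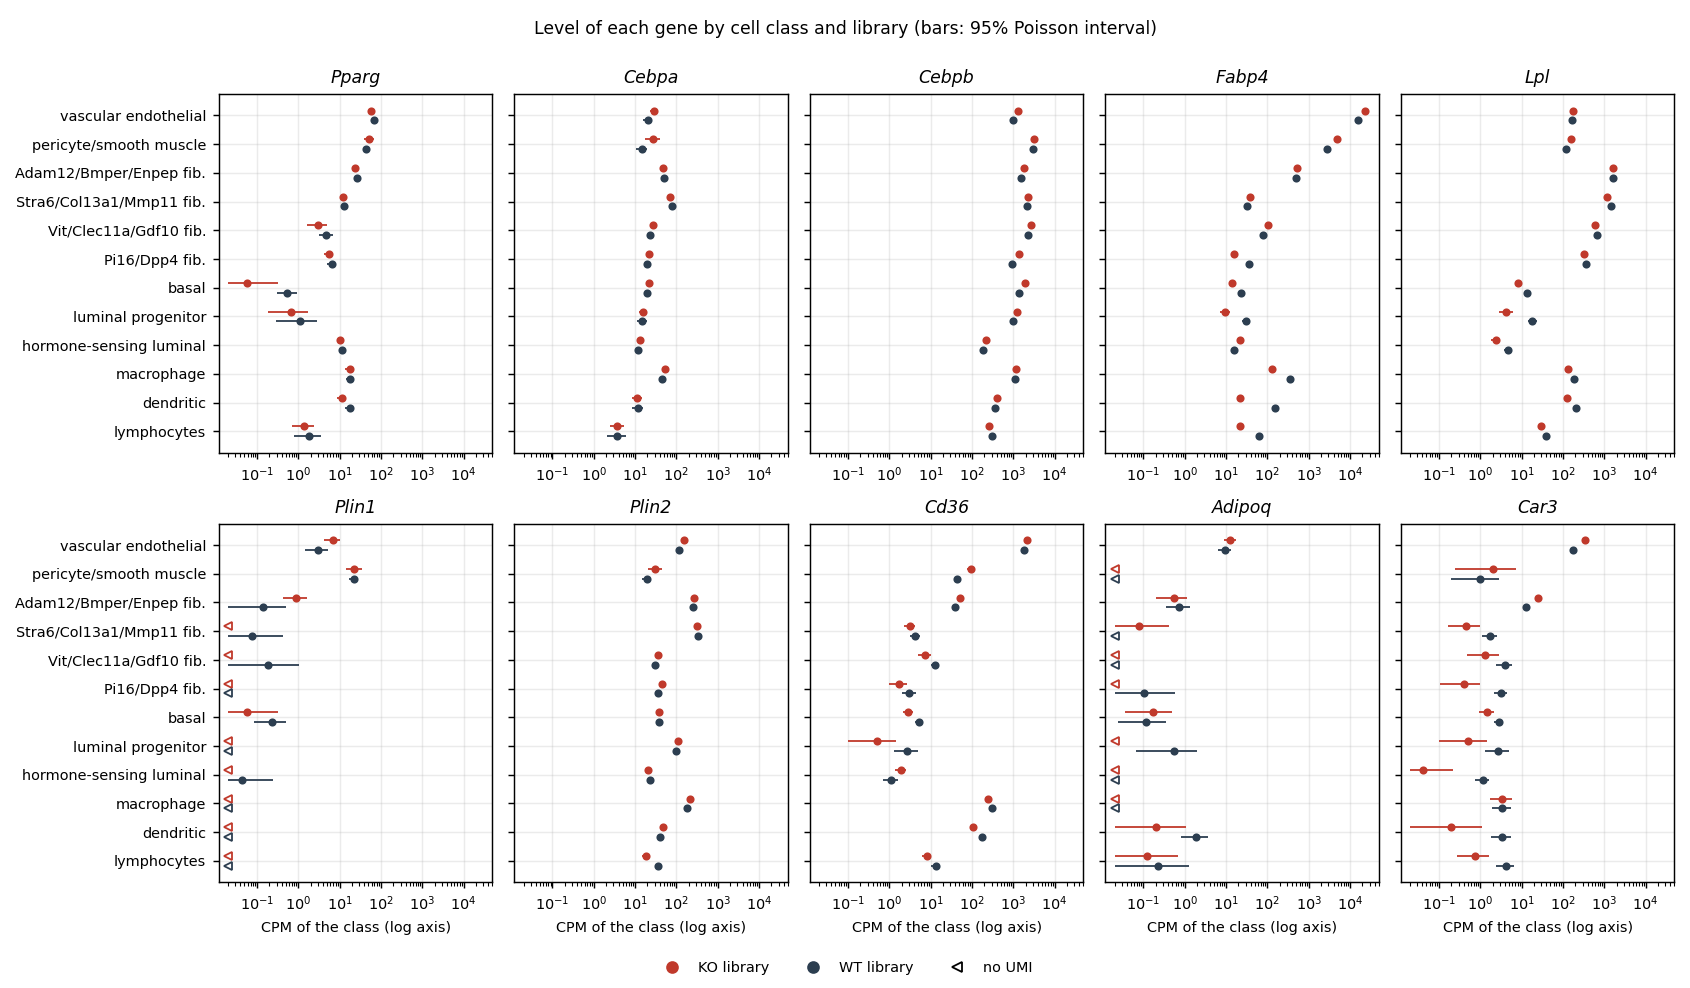
Level of each of the 10 members (CPM, log axis) in 12 cell classes, one panel per gene; filled symbols are the summed UMIs of the knockout and wild-type libraries with exact 95% Poisson intervals, and open triangles mark a class with no UMI; intervals that reach below the axis are drawn to its left edge. Fabp4, Cd36, Adipoq and Car3 stand highest in vascular endothelial cells, Lpl in Adam12, Bmper and Enpep fibroblasts, and Plin1 in pericytes or smooth muscle.

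The regulators had 3 different patterns across the 14 classes. Pparg, the nuclear receptor at the centre of the programme, was highest in vascular endothelial cells, at 58.6 CPM (50.4 to 67.8) in the knockout and 68.5 CPM (60.3 to 77.5) in the wild type. Pericytes or smooth muscle followed at 52.5 and 43.5 CPM, then Adam12, Bmper and Enpep fibroblasts at 23.8 and 26.3 CPM, then macrophages at 17.9 and 17.7 CPM. The libraries' ranges of these 4 classes did not overlap. Next came Stra6, Col13a1 and Mmp11 fibroblasts, which lay below macrophages in both libraries, then dendritic cells, which overlapped those fibroblasts, and hormone-sensing luminal cells, which overlapped dendritic cells. Within the epithelium Pparg was found in hormone-sensing cells, at 10.1 CPM (8.90 to 11.5) and 11.3 CPM (10.0 to 12.8), where 14.6% and 16.5% of cells had a UMI against 0.631% and 0.775% of lymphocytes. Hormone-sensing cells were deeper, with a median of 16911 and 19904.5 UMIs against 4449.5 and 5315. Basal cells had 1 and 14 Pparg UMIs and luminal progenitors 4 and 4, at or below the lymphocyte levels of 1.38 and 1.84 CPM.

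Cebpa, the regulator that maintains the mature fat cell and also acts in myeloid cells, was highest in a fibroblast subset. Stra6, Col13a1 and Mmp11 fibroblasts carried 70.1 CPM (65.6 to 74.8) in the knockout and 78.1 CPM (73.4 to 83.0) in the wild type. Adam12, Bmper and Enpep fibroblasts followed at 47.1 and 50.9 CPM, which overlapped macrophages at 54.0 and 45.1 CPM. Pi16 and Dpp4 fibroblasts, which other studies place at the start of the adipogenic series, had 22.1 and 19.0 CPM. Cebpb, the early regulator that also answers stress and cytokine signals, was found broadly. Its level was 3154 and 2959 CPM in pericytes or smooth muscle, 2657 and 2315 CPM in Vit, Clec11a and Gdf10 fibroblasts, and 2326 and 2118 CPM in Stra6, Col13a1 and Mmp11 fibroblasts. Hormone-sensing cells had 214 and 190 CPM of Cebpb, below the lymphocyte level of 263 and 300 CPM, which is not read as background for this gene.

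The genes of fatty acid supply divided between fibroblasts and vessels. Lpl was a fibroblast gene: Adam12, Bmper and Enpep fibroblasts had 1678 CPM in the knockout and 1673 CPM in the wild type, Stra6, Col13a1 and Mmp11 fibroblasts 1152 and 1473, Vit, Clec11a and Gdf10 fibroblasts 604 and 654, and Pi16 and Dpp4 fibroblasts 329 and 367. None of these ranges overlapped, and vascular endothelial cells, next by the lower of their 2 levels, had 177 and 168 CPM, overlapping macrophages at 133 and 184 CPM and dendritic cells at 125 and 212 CPM. Fibroblasts held 93.5% and 86.7% of all Lpl UMIs and made up 43.9% and 36.1% of cells. Lymphocytes had 29.3 and 38.2 CPM.

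Fabp4 and Cd36, by contrast, were concentrated in vascular endothelial cells. These cells were 3.15% of the knockout and 3.47% of the wild-type cells, and held 82.0% and 70.7% of all Fabp4 UMIs and 72.7% and 64.6% of all Cd36 UMIs. Their Fabp4 level was 22568 CPM (22401 to 22736) in the knockout and 15831 CPM (15703 to 15960) in the wild type, and a UMI was present in 93.6% and 99.2% of cells. Among the 14 classes pericytes or smooth muscle came next at 4834 and 2831 CPM, then Adam12, Bmper and Enpep fibroblasts at 525 and 483 CPM. Outside them, a cluster of 55 and 134 cells, left without a name, had 6175 and 2256 CPM. The other fibroblast subsets had 105 CPM or less. Cd36 stood at 2116 CPM (2065 to 2167) and 1781 CPM (1738 to 1824) in the endothelium. Macrophages, which use it as a scavenger receptor, followed among the 14 classes at 239 and 310 CPM. Pericytes or smooth muscle, at 95.7 and 43.2 CPM, overlapped Adam12, Bmper and Enpep fibroblasts, at 51.3 and 39.1 CPM.

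The 2 droplet coat genes behaved differently. Among the 14 classes Plin2, the coat of small droplets in many cell types, was highest in Stra6, Col13a1 and Mmp11 fibroblasts, at 307 CPM (298 to 317) and 327 CPM (317 to 337). Adam12, Bmper and Enpep fibroblasts followed at 274 and 256 CPM. Outside the 14 classes, keratinocyte-like cells of the wild type had 1812 CPM. Macrophages had 212 and 181 CPM, vascular endothelial cells 157 and 118 CPM, and luminal progenitors 110 and 96.6 CPM, each below the class before it in both libraries. Plin1, the fat-cell coat, was sparse, with 58 UMIs in the whole knockout library and 98 in the wild type. Pericytes or smooth muscle held 22 and 68 of them, or 22.6 CPM (14.2 to 34.3) and 21.9 CPM (17.0 to 27.8), in 9.66% and 12.5% of cells. Adipoq had no UMI in these cells in either library, and of 16 other fat-cell genes Retn, Adig, Cidec, Acvr1c, Slc36a2, Mrap and Pck1 had none. Vascular endothelial cells followed with 21 and 11 Plin1 UMIs. Fibroblasts had 10 and 4 among 4592 and 3803 cells.

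Adipoq and Car3, products of the mature cell, were highest in the endothelial cluster among the 14 classes, but were not confined to it. Adipoq had 55 UMIs in the knockout library and 61 in the wild type, of which vascular endothelial cells held 39 and 34, or 12.6 CPM (8.98 to 17.3) and 9.21 CPM (6.38 to 12.9). A UMI was present in 8.79% and 5.21% of endothelial cells, against 0.0789% and 0.194% of lymphocytes. Car3 stood at 347 CPM (327 to 369) and 172 CPM (159 to 186) in vascular endothelial cells and at 24.8 and 12.7 CPM in Adam12, Bmper and Enpep fibroblasts. Outside the 14 classes, Car3 reached 5391 CPM in the 64 skeletal muscle cells of the wild type. In the other classes among the 14 it was at 3.89 CPM or less, apart from 8.92 CPM in wild-type B cells.

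**Figure D2:**
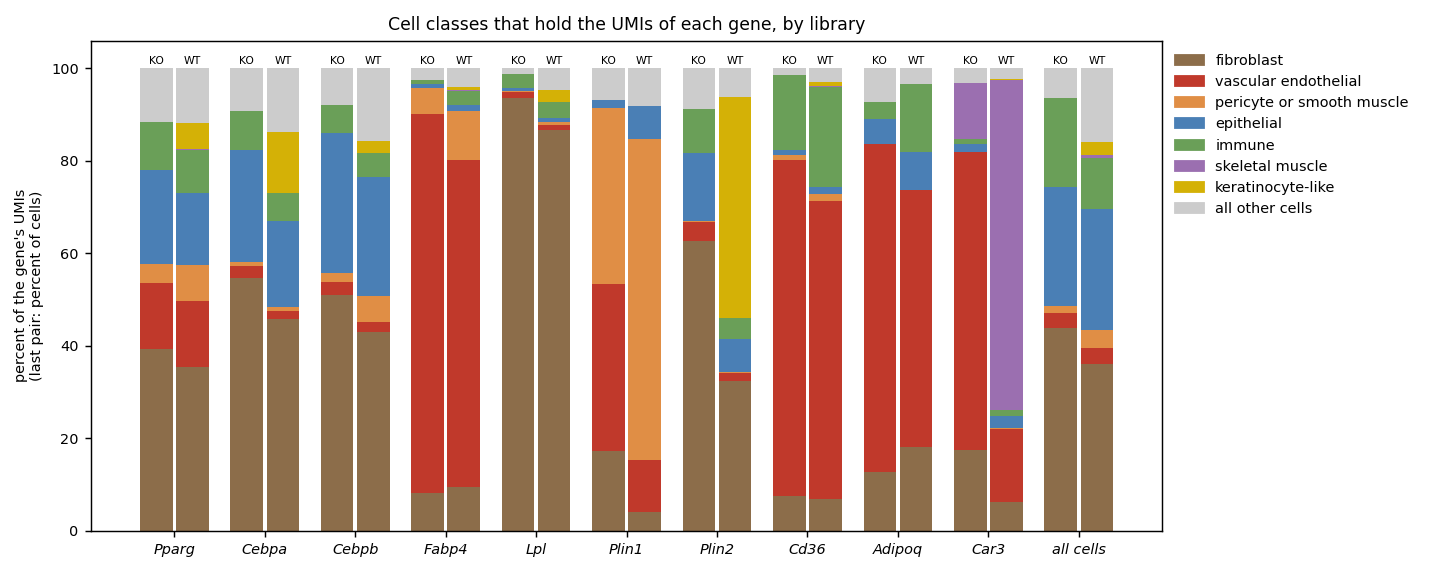
Percent of all UMIs of each member that fell in each cell class, as stacked bars for the knockout and the wild-type library, with the percent of cells as the last pair of bars. Vascular endothelial cells take most of Fabp4, Cd36 and Adipoq and fibroblasts most of Lpl, while skeletal muscle takes 71.4% of wild-type Car3 and keratinocyte-like cells 47.8% of wild-type Plin2.

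The shares of UMIs shift with cell makeup, as the stacked bars show, so the comparison of genotypes was made within classes. A ratio is given as log2 of knockout over wild-type CPM with 1 CPM added to each, for genes with at least 20 UMIs over both libraries in the class, and a gene is counted as differing where it passes 2-fold. In fibroblasts as a whole, none of the 8 members with enough UMIs passed 2-fold, where 0.669% of 14809 genes did. With the lymphocyte level of each library subtracted, 2 of the 8 passed: Cd36 went from 0.04 to 1.22 and Car3 from 0.29 to 1.47. The Cd36 level subtracted includes the leading lymphocyte of each library, without which it was 6.52 CPM in the knockout and 8.34 CPM in the wild type. The subtraction was not repeated without those cells. These 8 were every member except Adipoq and Plin1. Their median ratio was -0.03 and that of all genes -0.06. Adipoq, with 7 and 11 UMIs, and Plin1, with 10 and 4, were too sparse for a ratio.

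Among the fibroblast regulators Cebpb differed most: 1978 CPM in the knockout and 1672 CPM in the wild type, a ratio of 0.24 (1.18 times, 1.17 to 1.20). Pparg stood at 12.7 CPM (11.6 to 13.9) and 14.8 CPM (13.7 to 16.0), a ratio of -0.21, and Cebpa at 46.1 and 48.5 CPM, a ratio of -0.07. Lpl stood at 1025 and 1179 CPM (-0.20), Cd36 at 17.1 and 16.6 (0.04), Fabp4 at 180 and 187 (-0.06) and Plin2 at 198 and 199 (-0.01). With totals scaled by the trimmed mean of M-values (TMM) the ratios of Cebpa, Fabp4 and Plin2 turned to 0.02, 0.03 and 0.09, so no direction is given for them. That scaling moved the median of all genes by 0.07 and the share of genes above 0 from 40.7% to 51.9%, and the members above 0 from 3 to 6 of 8.

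Car3 in fibroblasts showed 7.51 CPM in the knockout and 5.94 CPM in the wild type, but 5 cells held 51.9% of its knockout UMIs and 28.3% of its wild-type UMIs. A Car3 UMI was found in 1.55% of knockout and 3.10% of wild-type fibroblasts, and in 0.666% and 0.623% after each cell was thinned to 2000 UMIs. Without the 5 leading cells of each library the ratio went from 0.29 to -0.19. No direction holds for Car3 in fibroblasts as a whole.

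The 4 fibroblast subsets are named by genes fixed as their markers. Cebpb was higher in the knockout library in each: 1353 against 921 CPM in Pi16 and Dpp4 fibroblasts (ratio 0.55, 1.47 times, 1.43 to 1.51), 1853 against 1524 CPM in Adam12, Bmper and Enpep fibroblasts (0.28), 2326 against 2118 CPM in Stra6, Col13a1 and Mmp11 fibroblasts (0.13) and 2657 against 2315 CPM in Vit, Clec11a and Gdf10 fibroblasts (0.20). It passed 2-fold in none of them. Pparg was lower in the knockout library in all 4 subsets by small amounts, 5.46 against 6.56, 23.8 against 26.3, 12.3 against 12.9 and 3.03 against 4.82 CPM in the same order, and the counting intervals of the 2 libraries overlapped in each. Thinning to 2000 UMIs turned its ratio to 0.26 in Adam12, Bmper and Enpep fibroblasts and to 0.32 in Vit, Clec11a and Gdf10 fibroblasts. The share of Adam12, Bmper and Enpep fibroblasts with a Pparg UMI was 17.1% and 20.7%.

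Lpl was lower in the knockout library in Stra6, Col13a1 and Mmp11 fibroblasts, with 1152 CPM against 1473 CPM (ratio -0.35, wild type over knockout 1.28, 1.25 to 1.31). Adam12, Bmper and Enpep fibroblasts had 1678 and 1673 CPM. The difference between these 2 ratios was not tested.

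Adam12, Bmper and Enpep fibroblasts were the subset with most of the fat-cell products. Fabp4 was found in 58.6% and 53.6% of them, at 525 CPM (512 to 539) and 483 CPM (471 to 494), and Cd36 stood at 51.3 and 39.1 CPM (ratio 0.38, and 0.05 when cells were clustered more finely). Car3 had 277 and 176 UMIs, or 24.8 CPM (21.9 to 27.9) and 12.7 CPM (10.9 to 14.7), a ratio of 0.91, just under 2-fold. That ratio rested on few cells: 5 of them held 54.9% and 40.3% of the UMIs, and it was 0.51 without those cells and -0.32 under finer clustering.

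In Pi16 and Dpp4 fibroblasts 2 members passed 2-fold, Fabp4 and Car3, where 1.71% of 11901 genes did. Fabp4 stood at 15.7 and 36.8 CPM (ratio -1.18) and Car3 at 0.397 CPM (0.108 to 1.02) and 3.18 CPM (2.16 to 4.51), from 4 and 31 UMIs (-1.58). All 4 of these levels are at or below those of lymphocytes in the same library, although wild-type Fabp4 lies above the 10.4 CPM of lymphocytes without their leading cell. In this subset 6 skeletal muscle markers summed to 9.73 CPM in the knockout and 107 CPM in the wild type. In Vit, Clec11a and Gdf10 fibroblasts 1 member, Car3, passed 2-fold (1.30 and 3.89 CPM, ratio -1.09), where 2.86% of genes did. The wild-type value lies below the lymphocyte level of its own library. The knockout value lies above that of its own, though within the interval of that level. No member passed 2-fold in Adam12, Bmper and Enpep fibroblasts or in Stra6, Col13a1 and Mmp11 fibroblasts, where 1.59% and 1.03% of genes did.

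**Figure D3:**
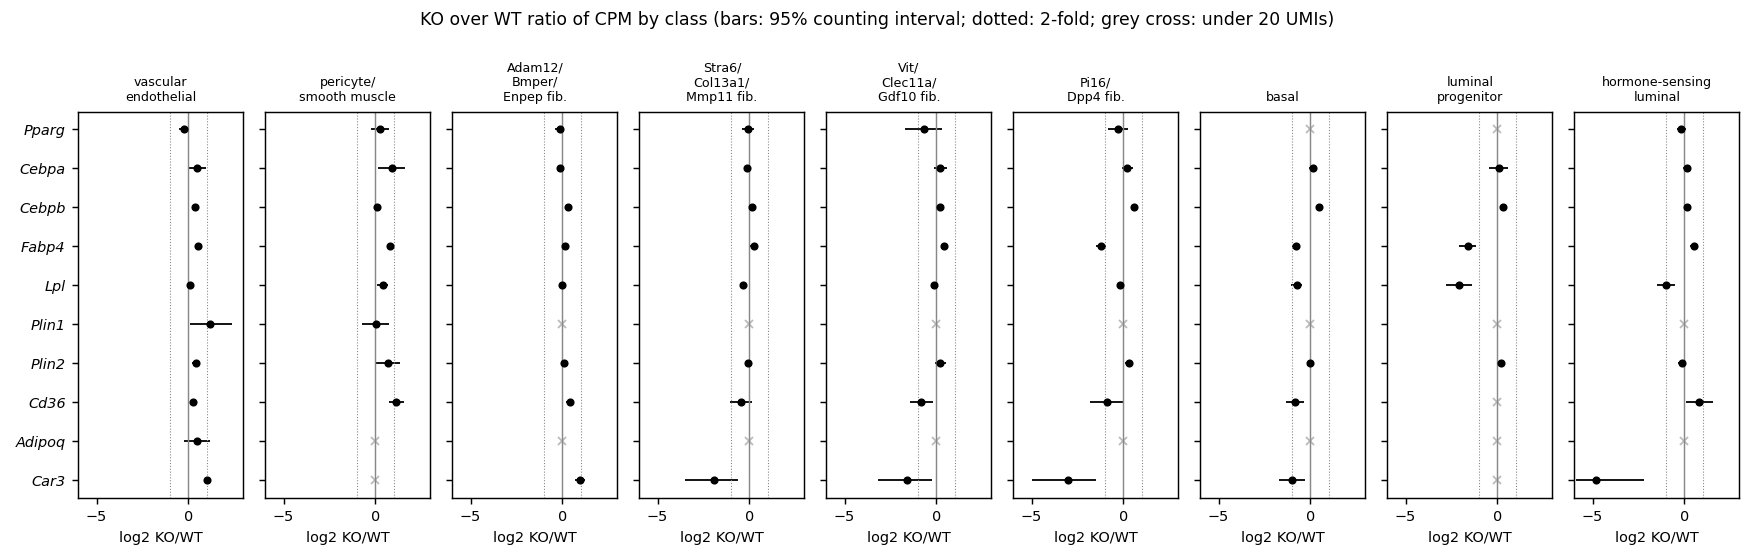
Log2 ratio of knockout over wild-type CPM for the 10 members in 9 cell classes, with exact 95% counting intervals, without a pseudocount; dotted lines mark 2-fold and grey crosses mark genes with under 20 UMIs in the class, and the Car3 interval of hormone-sensing cells runs past the left edge. Vascular endothelial cells and pericytes or smooth muscle lie mostly right of 0, and Cebpb lies right of 0 in all 4 fibroblast subsets.

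In vascular endothelial cells most members stood higher in the knockout library, but not all of these directions are settled. All 10 members had enough UMIs there, and 9 of the 10 had a positive ratio, with a median of 0.41. The median of all genes in the class was -0.07, so most of them lay below 0. Of the 9, Cebpa and Lpl turned negative on thinning, and Plin1 and Adipoq rest on few UMIs. Passing 2-fold were 1 of 10 members and 5.26% of 10980 genes, and 1.15% of genes were that much higher in the knockout library. The cluster carried all 8 of its markers, and its 330 and 365 cells had medians of 6933 and 7391 UMIs.

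Fabp4 was higher in the knockout endothelium, 22568 against 15831 CPM, a ratio of 0.51 (1.43 times, 1.41 to 1.44). The quartiles of the cells were 83.25 and 278 UMIs in the knockout, with a median of 167.5, and 45 and 209 in the wild type, with a median of 113, so the cells of the libraries overlapped widely. No UMI was found in 21 knockout and 3 wild-type cells, of which 14 and 1 had at least 2 of 6 lymphatic endothelial markers. With cells that had at least 3 lymphatic markers left out (10 and 5), Fabp4 stood at 23234.5 and 16046.3 CPM.

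Among the partners of Fabp4, Cd36 had a ratio of 0.25 (2116 and 1781 CPM), Lpl 0.08 (177 and 168 CPM) and Plin2 0.41 (157 and 118 CPM). The regulators Cebpb and Cebpa had ratios of 0.39 (1290 and 987 CPM) and 0.45 (28.2 and 20.3 CPM). Pparg was the exception with a negative ratio, -0.22 (58.6 and 68.5 CPM), with UMIs in 35.8% and 38.1% of cells. Thinning turned the ratio of Pparg to 0.25 and those of Cebpa and Lpl to -0.23 and -0.13, so these 3 have no settled direction. Plin1, from 21 and 11 UMIs, had a ratio of 0.97 (2.28 times, 1.05 to 5.24), and Adipoq, from 39 and 34 UMIs, 0.42.

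Car3 was the member past 2-fold in the endothelium, with 1073 UMIs in the knockout and 635 in the wild type, a ratio of 1.01 (2.02 times, 1.83 to 2.23). A UMI was found in 42.4% and 33.2% of cells, and in 26.3% and 19.4% after thinning to 2000 UMIs. Under the alternatives tried its ratio ran from 0.94 to 1.14, so its call at 2-fold came and went while its direction held. Wild-type lymphocytes had more Car3 than knockout lymphocytes. Skeletal muscle markers summed to 18.1 CPM in the knockout and 129 CPM in the wild-type endothelium. The part of free RNA or of muscle RNA in the endothelial Car3 ratio was not tested. All 16 other fat-cell genes were detected in the endothelial cells of both libraries. They summed to 656 CPM (628 to 686) in the knockout and 375 CPM (355 to 395) in the wild type. Lymphocytes had 7.39 and 11.3 CPM of these genes.

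Of the 16 fat-cell genes, 10 had enough UMIs in the endothelium; 3 were at least 2-fold higher in the knockout library and none that much lower, and their median ratio was 0.71. Retn, which encodes the hormone resistin, stood at 53.4 and 24.4 CPM, Thrsp, a regulator of lipogenesis, at 137 and 54.7 CPM, and Adig at 15.9 and 5.15 CPM. Cfd, the secreted protease adipsin, stood at 236 and 129 CPM (0.86) and Aqp7, a glycerol channel made by both fat cells and capillaries, at 146 and 89.9 CPM (0.69). Lipe, hormone-sensitive lipase, went the other way, at 22.3 and 34.9 CPM (-0.62). The part of fat-cell RNA in the endothelial differences was not tested.

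Cells with a Car3 UMI, 140 of 330 knockout and 121 of 365 wild-type endothelial cells, were set against the rest of their own library. They were somewhat deeper, with medians of 7213.5 and 9038 UMIs against 6698.5 and 6405. Adipoq stood at 28.3 and 24.3 CPM in cells with Car3 and at 1.12 and 0.842 CPM in cells without, and Plin1 at 15.3 and 6.83 CPM against 0.560 and 0.842. Fat-cell products thus lay mostly in the Car3 cells of both libraries. Cfd was found in 75.7% and 60.3% of cells with Car3 and in 8.42% and 5.74% of cells without, and Adipoq in 19.3% and 14.0% against 1.05% and 0.820%.

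The other members also differed between these cells, by smaller factors. Fabp4 stood at 32696 and 21548 CPM in cells with Car3 and at 15158 and 12657 in cells without, Cd36 at 3078 and 2424 against 1411 and 1423, and Lpl at 283 and 259 against 100.3 and 118. Pparg stood at 75.8 and 87.2 against 46.0 and 58.1 CPM and Plin2 at 235 and 168 against 99.2 and 89.3.

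**Figure D4:**
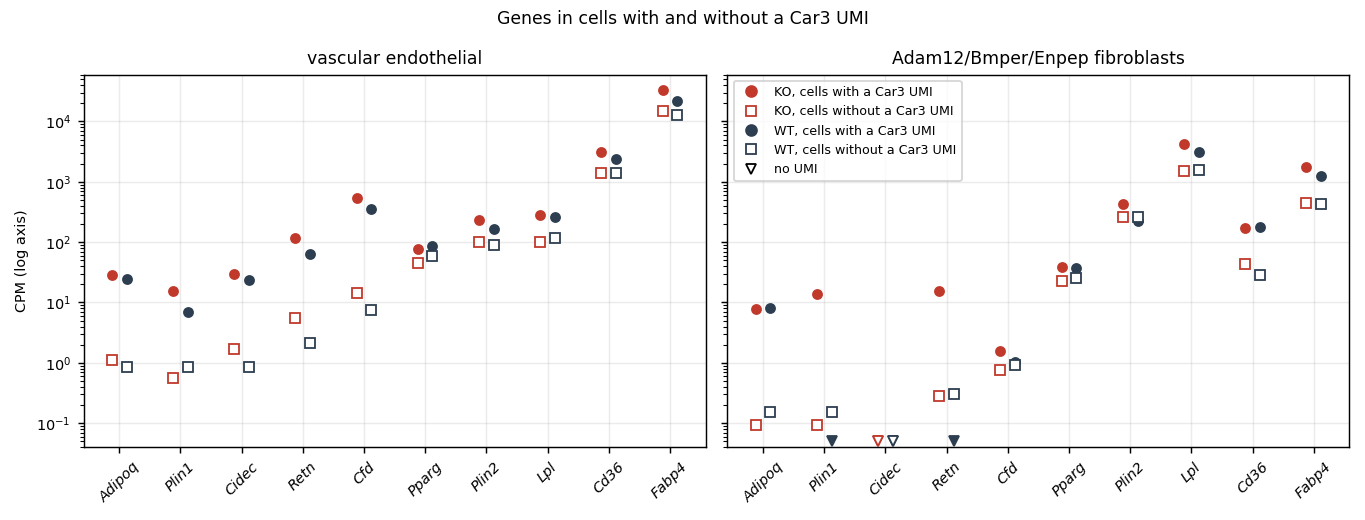
CPM (log axis) of 10 genes in cells with and without a Car3 UMI, for vascular endothelial cells and for Adam12, Bmper and Enpep fibroblasts, in each library. The genes are the members Adipoq, Plin1, Pparg, Plin2, Lpl, Cd36 and Fabp4 and the fat-cell genes Cidec, Retn and Cfd. Car3 itself splits the cells. Adipoq and Plin1 in the endothelium lie between 0.560 and 1.12 CPM in cells without Car3, and Fabp4, Cd36 and Lpl are higher in cells with Car3 in both classes.

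Under finer clustering of all cells the endothelial cells fell into 3 sub-clusters, named by leading genes. The one led by Cldn5, Gpihbp1 and Aqp7 (148 and 132 cells) had the most Fabp4, 34478 and 20494 CPM, and the most Car3, 560 and 371 CPM. The one led by Rgs5, Esm1 and Flt1 (99 and 107 cells) had 20759 and 15997 CPM of Fabp4 and 402 and 120 CPM of Car3. The one led by Selp, Sele and Ackr1 (83 and 126 cells), genes of venules, had 11822 and 11856 CPM of Fabp4 and 28.9 and 69.9 CPM of Car3.

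All of the cells with at least 3 lymphatic markers lay in the Selp sub-cluster (10 of 83 and 5 of 126). Without them its Fabp4 stood at 13119 and 12312 CPM and its Car3 at 32.4 and 73.5 CPM. Fabp4 and Car3 were thus higher in the knockout library in the first and the second sub-cluster, while in the one with Selp Fabp4 was close to level and Car3 was lower. Cfd followed the same order, at 388 and 278 CPM, 263 and 65.4 CPM and 25.5 and 81.9 CPM. Cd36 stood at 3259 and 2560, 2134 and 1943, and 805 and 961 CPM. Lpl stood at 252 and 198, 216 and 174, and 38.2 and 137 CPM. Pparg, at 87.6 and 71.3, 64.5 and 102, and 17.4 and 28.1 CPM, changed direction between the first sub-cluster and the other two. The differences between sub-clusters were not tested. Because Gpihbp1 and Aqp7 lead the first sub-cluster and are genes of the same pathway, no difference in its size is drawn.

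In Adam12, Bmper and Enpep fibroblasts, cells with a Car3 UMI (57 of 1197 and 63 of 1104) likewise had more Fabp4, 1744 and 1269 CPM against 450 and 423, and more Cd36, 173 and 176 against 43.8 and 28.8. Lpl stood at 4199 and 3171 CPM against 1523 and 1560 and Pparg at 38.6 and 37.9 CPM against 22.9 and 25.4. Unlike in the endothelium, Cfd was at 1.54 and 1.02 CPM in the cells with Car3 and Cidec had no UMI. Adipoq stood at 7.72 and 8.19 CPM there, against 0.0949 and 0.155 CPM in cells without, but came from 1 cell in each library. Retn and Plin1 stood at 15.4 and 13.9 CPM in knockout cells with Car3, against 0.285 and 0.0949 CPM in those without. Neither had a UMI in the wild-type cells with Car3. The median depth of cells with Car3 was 10711 and 14521 UMIs against 9423.5 and 12125. The summed level of 8 endothelial markers in the whole subset was 7.78 and 13.9 CPM.

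The ratio of one member to another also differed between classes. Per 100 Fabp4 UMIs there were 1.54 and 1.09 of Car3 in the endothelium, 4.71 and 2.62 in Adam12, Bmper and Enpep fibroblasts, and 0.0426 and 0.0341 in pericytes or smooth muscle. Cd36 per 100 Fabp4 UMIs was 9.37 and 11.2 in the endothelium, 1.98 and 1.52 in pericytes or smooth muscle and 180 and 88.2 in macrophages.

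In pericytes or smooth muscle, 176 and 408 cells with medians of 5256.5 and 7176 UMIs, all 8 members with enough UMIs had a ratio above 0, with a median of 0.52. Over all genes of the class the median was -0.05 and 45.2% were above 0. The class carried all 7 of its markers but is led by Xirp1, Pln and Sncg, genes of smooth muscle, and Rgs5, a pericyte gene, was higher in another, smaller cluster of 43 and 113 cells, at 1981 and 2141 CPM against 573 and 218 CPM here. Rgs5 was thus higher in the knockout library within this class, and the part of pericyte content in the member ratios was not tested. Of the 8 members 1, Cd36, passed 2-fold, where 7.11% of 9134 genes did. Fabp4 stood at 4834 CPM in the knockout and 2831 CPM in the wild type, a ratio of 0.77 (1.71 times, 1.65 to 1.77). Cd36 had 93 and 134 UMIs, or 95.7 CPM (77.2 to 117) and 43.2 CPM (36.2 to 51.1), a ratio of 1.13 (2.22 times, 1.68 to 2.91). That call was lost, with the direction kept, at 0.67 with at most 5% mitochondrial UMIs, 0.89 without the 5 leading cells, 0.92 after thinning, 0.95 at resolution 2 and 0.97 as a mean per cell.

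The other members in these cells had smaller ratios or few UMIs. Cebpa (26.8 and 14.5 CPM) had a ratio of 0.84, Plin2 (30.9 and 19.3 CPM) 0.65, Lpl (157 and 120 CPM) 0.39 and Cebpb (3154 and 2959 CPM) 0.09. Plin1, which was highest in this class, was close to level at 22.6 and 21.9 CPM. Car3 had 2 and 3 UMIs. Endothelial markers summed to 220 and 208 CPM in the 2 libraries, and the 16 other fat-cell genes to 75.1 and 108 CPM with 9 and 6 of them detected.

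Epithelial cells carried few of the members. In basal cells, the contractile outer layer of the ducts, none of the 7 members with enough UMIs passed 2-fold, where 1.03% of 14134 genes did. Cebpb was higher in the knockout library, 1880 CPM (1860 to 1901) against 1344 CPM (1330 to 1358), a ratio of 0.48. Cebpa stood at 21.3 and 19.5 CPM and Plin2 at 37.5 and 38.1 CPM. In hormone-sensing cells 1 of 8 members passed 2-fold, where 1.69% of genes did: Car3, with 1 and 26 UMIs, which is below the lymphocyte level in both libraries, beside skeletal muscle markers at 7.12 and 40.6 CPM.

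Luminal progenitors, which give rise to the milk-secreting alveolar cells, had more Plin2 than basal or hormone-sensing cells, at 110 CPM (102 to 119) and 96.6 CPM (86.9 to 107). Cebpb stood at 1262 and 1003 CPM (ratio 0.33) and Cebpa at 15.3 and 14.6 CPM. In this class 2 of 5 members passed 2-fold, where 3.48% of 11057 genes did: Fabp4 at 9.64 and 29.8 CPM (-1.53) and Lpl at 4.32 and 18.1 CPM (-1.85). Both are below the lymphocyte levels of their library, although wild-type Fabp4 lies above the 10.4 CPM of lymphocytes without their leading cell. Fibroblast markers summed to 270 and 584 CPM in these cells. In the cluster with progenitor and hormone-sensing markers together, Fabp4 at 17.9 and 7.03 CPM passed 2-fold (1.23, among 1.77% of genes), below the lymphocyte level in both libraries and with 115 of the knockout UMIs in 1 cell. The knockout value lies just above the 17.1 CPM of lymphocytes without their leading cell.

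Immune cells served as the background, but macrophages and dendritic cells express several members themselves. Macrophages had 239 and 310 CPM of Cd36, 212 and 181 of Plin2, 133 and 184 of Lpl, 54.0 and 45.1 of Cebpa and 1171 and 1084 of Cebpb. Dendritic cells had 107 and 178 CPM of Cd36 and 125 and 212 of Lpl. Fabp4, also a macrophage gene, stood at 133 and 352 CPM in macrophages (-1.40), with 80.6% and 83.0% of its UMIs in 5 cells, and at 22.2 and 154 CPM in dendritic cells (-2.74), where 1 wild-type cell held 346 of 653 UMIs. Fabp4 was the 1 member past 2-fold in each of these classes, of 8 and 7 with enough UMIs, where 6.25% and 5.28% of genes were. In both classes a few cells thus held most of the Fabp4 UMIs of the wild type. In B cells 3 of 6 members passed 2-fold, where 9.73% of genes did: Fabp4 at 33.2 and 167 CPM (-2.29), Cd36 at 15.7 and 35.0 CPM (-1.11) and Plin2 at 16.6 and 35.0 CPM (-1.03). No direction holds for these 3. One cell held 228 of the 243 wild-type Fabp4 UMIs, and without the leading cells Fabp4 had a ratio of 0.59 and Cd36 of 0.25. After thinning Cd36 was at 1.07 and Plin2 at 0.15. In T cells none of 5 members did, where 6.21% of genes did, and Fabp4 stood at 18.5 and 8.91 CPM (0.98).

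Cebpb was the member whose direction was shared most widely. Its level was higher in the knockout library in 12 of the 14 classes and lower in B cells (371 and 422 CPM) and T cells (190 and 193 CPM). The ratios of the 12 ran from 0.09 in pericytes or smooth muscle to 0.55 in Pi16 and Dpp4 fibroblasts, none past 2-fold. Hormone-sensing cells, among the 12, lay below the lymphocyte level of Cebpb in both libraries, which is not read as background for this gene. How many of all genes shared a direction as widely was not counted. Under TMM scaling the T cell ratio turned to 0.18, and the other 13 classes kept their sign.

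Genes of the same pathways outside the members were taken from 7 lists. In fibroblasts, where the median of all genes was -0.06, none of 18 fatty acid uptake genes, 12 lipid droplet genes, 15 synthesis genes, 18 other adipogenic regulators or 19 preadipocyte genes with enough UMIs passed 2-fold. Their medians were -0.10, -0.03, -0.24, 0.00 and -0.16. Of 8 fat-cell genes 1 was lower, Cfd, at 0.282 and 1.94 CPM (-1.20), where 61 of the 82 wild-type UMIs lay in 5 cells and the ratio without leading cells was -0.41. Of 15 inhibitors of adipogenesis 1 was lower, Dlk1, the preadipocyte factor whose loss accompanies differentiation, at 3.41 and 9.61 CPM (-1.27, and -1.22 without leading cells). The inhibitors' median was -0.26. In Adam12, Bmper and Enpep fibroblasts Dlk1 stood at 6.88 and 23.2 CPM (-1.62). A finer cluster led by Slc26a7, Dlk1 and Isl1 held 3 knockout and 91 wild-type cells, of which 2 and 6 were counted as fibroblasts. Without these, Dlk1 stood at 3.41 and 9.50 CPM in fibroblasts and at 6.90 and 23.0 CPM in the Adam12, Bmper and Enpep subset. Dlk1 had a ratio of -1.73 in the endothelium and of -0.68 in basal cells.

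Other fibroblast genes at the ends of these lists stayed within 2-fold. Apoe, which carries lipid out of cells, stood at 686 and 496 CPM (0.47). Lrp1, a lipoprotein receptor, stood at 700 and 833 CPM and Slc27a6 and Fabp3 were under 3 CPM. The desaturases Scd1 and Scd2 stood at 136 and 182 CPM (-0.42) and 149 and 191 CPM (-0.36), and the elongase Elovl6 at 29.9 and 44.0 CPM (-0.54). Among the genes of triglyceride assembly, Dgat2 had a ratio of -0.44, Gpam of 0.22 and Dgat1 of 0.24.

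Droplet genes included Pnpla2, the first lipase of droplet breakdown, at 9.77 and 13.1 CPM (-0.39), its inhibitor G0s2 at 6.00 and 4.05 CPM (0.47), its activator Abhd5 at 56.7 and 59.5 CPM and its inhibitor Hilpda at 78.0 and 65.9 CPM (0.24). Regulators included Cebpd, which acts beside Cebpb, at 270 and 218 CPM (0.31), Klf5 at 18.9 and 29.0 CPM (-0.59), Klf4 at 584 and 758 CPM (-0.37), Klf9 at 713 and 738 CPM and Ebf1 at 626 and 603 CPM. Cebpd and Cebpb thus lay above 0, and Klf5 and Klf4 below. Of the inhibitors, the Notch target Hes1 stood at 371 and 581 CPM (-0.65) and the Id gene Id3 at 1619 and 1164 CPM (0.48). Icam1, a marker of committed preadipocytes, stood at 178 and 285 CPM (-0.68), Col4a1 at 1008 and 1376 CPM (-0.45) and Ly6a, the stem cell antigen Sca-1, at 1098 and 820 CPM (0.42). Among fat-cell genes the most abundant were Slc36a2, at 8.07 and 7.26 CPM, and Plin4, at 2.41 and 1.96 CPM.

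In vascular endothelial cells the uptake, droplet and synthesis lists had medians of 0.08, 0.10 and 0.01 against -0.07 for all genes. Of 16 uptake genes none passed 2-fold. Gpihbp1, which holds lipoprotein lipase on the capillary wall, stood at 821 and 591 CPM (0.47), Angptl4, which inhibits that enzyme, at 151 and 112 CPM (0.42) and Lrp1 at 56.0 and 98.8 CPM (-0.81). Lpl itself stood at 177 and 168 CPM in the endothelium, with a UMI in 53.9% and 54.5% of cells and no settled direction. Whether these cells make it or it came from other cells was not tested. Of 13 droplet genes none passed, with Hilpda at 286 and 207 CPM (0.46) and Mgll at 473 and 440 CPM. Of 15 synthesis genes 1 was higher, Thrsp, and 1 lower, Gpam, while Me1, which supplies NADPH, stood at 72.2 and 42.0 CPM (0.77), Scd1 at 146 and 134 CPM and Fasn at 93.2 and 92.9 CPM.

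Of 15 other regulators in the endothelium 1 was lower, Klf5, at 12.6 and 30.6 CPM (-1.21). At least 2-fold lower in the knockout were 4.11% of genes in this class. Of 14 inhibitors 4 were lower, Dlk1, Gata3, Wnt5a and Sox9, and Sox9 stood at 10.0 and 56.1 CPM (-2.37). Of 16 preadipocyte genes 6 were lower, Dpp4, Pi16, Sema3c, F3, Gdf10 and Pdgfra, with a median of -0.67. These last are fibroblast genes, and the 7 fibroblast markers summed to 1217 CPM in the knockout and 2570 CPM in the wild-type endothelial cells. Fibroblast markers thus moved with these lower values, and their part in them was not tested.

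In the epithelium the lists gave few 2-fold differences. Hes1 was lower in basal cells (158 and 364 CPM, -1.20) and in luminal progenitors (1009 and 2093 CPM, -1.05), and stood at 661 and 1175 CPM in hormone-sensing cells (-0.83). In luminal progenitors G0s2 was higher, at 15.0 and 4.60 CPM (1.51), and Wnt5a, Pi16, Col4a1 and Col15a1 were lower. In hormone-sensing cells Pi16, Cd34 and Pdgfra were lower, with Pi16 at 1.13 and 7.67 CPM beside fibroblast markers at 86.7 and 340 CPM. No other gene of the 7 lists passed 2-fold in these 3 classes.

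The genes most like each member over the 28 profiles of 14 classes in 2 libraries were taken by Pearson correlation of log2(CPM + 1) among 6761 genes that reach 50 CPM. The profiles share their 2 libraries and differ in depth, so these values describe and carry no test. Lpl was closest to Mitf (r = 0.93), B4galt5 and Ggt5, Fabp4 to Adcy4 (0.91), Asb4 and Tmem182, and Cd36 to Parvb (0.90), Cd93 and Crtc2. Car3 was closest to She (0.88), Cfd (0.87) and Adgrf5 (0.87), which places a fat-cell gene beside 2 genes of endothelium. Cebpa was closest to Acbd3, Anxa5 and Cd63 (0.90, 0.90 and 0.89), Cebpb to Wtip, Cald1 and Aldh2 (0.92 each), Plin2 to Lrrc59 (0.80), Crybg3 and Atp6v1a, and Pparg to Rgs3 (0.86), Gdf15 and Stom. Among pairs of members the closest were Cd36 with Fabp4 (0.84), Car3 with Fabp4 (0.78), Cebpa with Plin2 (0.77) and Fabp4 with Pparg (0.76). Plin1 and Adipoq reached 50 CPM in no class and were left out.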

How the data were processed

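Cells of the 4th mammary gland were counted in 1 library from Gpm6a knockout mice and 1 from wild-type mice. The deposited matrices hold raw UMI counts per gene and barcode, made on build mm10 with Cell Ranger 5.0.1, per the submitters' processing notes, which also list Seurat 3.2.0. The labels name version 2 of the 10x 3′ reagents. Cells had at least 500 genes, 1000 UMIs and at most 10% mitochondrial UMIs. Scrublet marked 435 of 10907 knockout and 461 of 10984 wild-type barcodes (3.99% and 4.20%) as doublets, which were removed. Scanpy 1.11.5 and leidenalg 0.10.2 clustered 2000 variable genes without the members and pathway genes (30 components, 20 neighbours, resolution 1), with no correction between libraries. A class was named from fixed markers, needing a lead of 1 on the log2 scale over the next class. That limit was raised from 0.5 after the clusters were seen, which left 1 cluster of 455 and 349 cells with its descriptive name. Fibroblasts were divided into subsets by 2 or 3 markers each.

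Counts were summed per class and library and divided by the class total. Ratios carried a pseudocount of 1 CPM and used genes with at least 20 UMIs over both libraries. Poisson and Clopper-Pearson intervals are exact. Trimmed mean of M-values factors came from edgeR 4.0.16, used for scaling only. The summing and ratio steps were tested on simulated data. With 1 library per genotype no p-value was computed. Named genes were the 10 members in classes of at least 100 cells per library, and, of each pathway list, the 2 highest and 2 lowest ratios among genes with at least 100 UMIs and the 2 at the highest level. Dlk1, Cfd, Adig and other listed genes outside that rule were named because they passed 2-fold, after their values were seen. A gene that the rule would name is not reported here. The split by Car3, the finer clusters described and the levels without a leading cell, lymphatic cells or the Dlk1-led cluster were also chosen after values were seen. The members and the lists were chosen with earlier results of these data known.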

Additional observations from a re-analysis of the deposited data

Results flagged for a closer look

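The ratio of 3 members passed 2-fold in opposite directions in different classes, and the difference between the classes was not tested in any of them. Fabp4 had a log2 ratio of knockout over wild type of 1.23 in the cluster with progenitor and hormone-sensing markers and of -2.74 in dendritic cells. Both rest on few cells: 1 knockout cell held 115 Fabp4 UMIs in the first, and 1 wild-type cell held 346 of 653 in the second. Cd36 had 1.13 in pericytes or smooth muscle and -1.11 in B cells, from 93 and 134 UMIs in the first and 36 and 51 in the second. The B cell value was 0.25 without the leading cells and 1.07 after thinning. Car3 had 1.01 in vascular endothelial cells, from 1073 and 635 UMIs, and -1.58 in Pi16 and Dpp4 fibroblasts, from 4 and 31 UMIs at or below the lymphocyte level.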

How the results depend on the processing

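Of 1510 alternative values of 126 member ratios, 1194 stayed within the counting interval of the reported value, 303 moved beyond it and 13 turned the sign of a value past 2-fold. Counting values on either side of 2-fold, 130 of the 1510 changed sign. Of 16 ratios past 2-fold, 58 of 192 alternative values were not. For fibroblasts as a whole, TMM scaling gave Cebpa 0.017, Cebpb 0.34, Fabp4 0.034, Lpl -0.11 and Plin2 0.085. A mean of per-cell CPM gave Cebpb 0.21, Fabp4 0.019, Lpl -0.17 and Car3 -0.041. Thinning to 2000 UMIs gave Cebpa -0.18 and Cebpb 0.21, resolution 2 gave Pparg -0.041, and Car3 was -0.19 without the 5 leading cells. With the lymphocyte level subtracted, Cebpb was 0.32, Fabp4 0.34, Plin2 0.14, Cd36 1.22 and Car3 1.47, and 2 members in place of 0 passed 2-fold. The levels subtracted include the leading lymphocytes. For Fabp4, 1 wild-type cell held 228 of 273 UMIs, and Cd36 was 6.52 and 8.34 CPM without its leading cells. The subtraction was not repeated without them.

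In vascular endothelial cells Fabp4 was 0.46 with doublets kept, 0.58 at resolution 2 and with members among the variable genes, 0.57 under TMM, 0.63 as a mean per cell and 0.61 thinned. Cd36 was 0.20 with doublets kept, 0.31 with members among the variable genes and under TMM, and 0.33 as a mean per cell. Of the endothelial members, 0 in place of 1 passed 2-fold at 5% mitochondrial UMIs and with a pseudocount of 5 CPM, and 2 with doublets kept, at resolution 2, with a pseudocount of 0.1 CPM, under TMM, as a mean per cell and thinned. The number above 0 was 8 of 10 as a mean per cell and thinned. In pericytes or smooth muscle 2 in place of 1 passed at 5% mitochondrial UMIs, with doublets kept and at resolution 0.5, 0 at resolution 2, as a mean per cell, without leading cells and thinned, and 3 with the lymphocyte level subtracted. Shares of cells before thinning were 26.0% and 28.1% for Fabp4 in fibroblasts and 42.4% and 33.2% for Car3 in the endothelium.

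The values past 2-fold that changed sign were these. Fabp4 in B cells was 1.58 with members among the variable genes and 0.59 without leading cells, and in lymphocytes together 1.02 and 0.32. Plin2 in B cells was 0.15 thinned, and Cd36 there was 0.25 without leading cells and 1.07 thinned. Fabp4 in luminal progenitors was 0.038 with doublets kept and 0.31 with the mixed cluster counted as progenitors, a choice added after seeing the data. Fabp4 in that mixed cluster was -0.91 as a mean per cell and -0.31 without leading cells. Car3 in Vit, Clec11a and Gdf10 fibroblasts was 0.78 thinned and 0.63 with the lymphocyte level subtracted. Lpl in luminal progenitors went from -1.85 to -0.83 and Fabp4 in dendritic cells from -2.74 to -1.20 without leading cells. The cause of these changes was not tested. TMM moved the median of all genes by over 0.1 in Pi16 and Dpp4 fibroblasts (0.11), T cells (0.20), dendritic cells (0.15) and lymphocytes (0.16). No paired analysis was possible because each genotype has 1 library.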

Other observations

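A cluster of 55 knockout and 134 wild-type cells met the marker rule for Schwann cells with 4 of 6 markers, but its leading genes include Rgs5, Kcnj8 and Vtn, genes of pericytes, and it is left without a name here. Under finer clustering 43 and 113 of its cells formed a cluster called pericyte or smooth muscle. Fabp4 stood in these at 7776 CPM (7409 to 8155) in the knockout and 2730 CPM (2597 to 2868) in the wild type. Of the 1696 knockout Fabp4 UMIs of the whole cluster, 271 lay in 1 cell. Lpl stood in the whole cluster at 386 and 317 CPM and Cd36 at 302 and 208 CPM.

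The cluster called keratinocyte-like, found in the wild-type library alone (297 cells), had 1812 CPM of Plin2 (1780 to 1844), in 86.9% of cells. It made up 2.82% of wild-type cells and held 47.8% of the library's Plin2 UMIs and 13.2% of its Cebpa UMIs. Finer clustering split it. The 164 cells that kept the name, led by Cst6, Defb6 and Krtdap, had 798 CPM of Plin2. An unnamed cluster of 81 cells led by Idi1, Olah, Acot5 and Fa2h, genes of lipid synthesis and handling, had 3153 CPM (3088 to 3220) of Plin2, 378 CPM of Lpl, 156 CPM of Cebpa and 22.1 CPM of Pparg. Another 52 cells, led by Cidea and Adgrf4, had 1556 CPM of Plin2. The cluster led by Rspo3, Rxfp2 and Myoc, 653 cells in the wild-type library, had 133 CPM of Lpl, 41.7 CPM of Cebpa and 6.70 CPM of Pparg, and Adipoq had no UMI in it, which allows up to 0.410 CPM.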
